A study of Mus musculus with 12 samples.

Results

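Pattern recognition receptors and inflammasome genes were examined as a group of 36 genes in the deposited table of 26855 genes. The group was set by name: 9 Toll-like receptors, 9 Toll-like receptor co-receptors, adaptors and kinases, 12 NOD-like receptor and inflammasome genes, and 6 C-type lectin receptors with their signalling partners. Each of the 36 has a row in the table, and 35 passed the filter on low counts. The exception was Tlr9, the receptor for unmethylated bacterial DNA, with 0, 2, 0 and 6 counts in the UPBIG libraries and 0 in each UPSMALL and DOWN library. It was not tested.

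The cells, labelled alveolar macrophages (phagocytes of the air spaces), were washed from mouse lungs on day 14 after bleomycin, a lung toxicant used to model fibrosis. The labels do not separate resident from recruited cells. A size filter split the cells by their content of border-associated alveolar macrophages (BAAMs), and sorting then took cells of high, intermediate and low side scatter and BODIPY staining (BODIPY is a dye for neutral lipid). SMART-Seq made 12 libraries of full-length cDNA, 4 each titled UPBIG, UPSMALL and DOWN. All 3 groups come from bleomycin-treated lungs, so no untreated group stands beside them. The labels give no strain, age or genotype, and they do not tie a title to a filter fraction or gate, so the groups are called by their titles. Whether replicates came from separate mice is not stated either. The p-values then measure only how far these samples spread, which may be technical.

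Toll-like receptors bind conserved microbial molecules at the cell surface or in endosomes and signal through the adaptors MyD88 and TRIF. NOD-like receptors and AIM2 sense microbial products or DNA in the cytosol, and several of them assemble inflammasomes, in which the adaptor ASC joins them to caspase-1, which matures interleukin-1 family cytokines and cuts gasdermin D into a pore-forming fragment. C-type lectin receptors of the Dectin family bind fungal and mycobacterial sugars and lipids and signal through the kinase SYK and the adaptor CARD9. Resident alveolar macrophages are known for muted responses to inhaled microbial products.

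The libraries held 17109669 to 23282621 expected counts in all, and 14863 to 17634 genes had a count in a library. All 12 alveolar macrophage markers had counts in every group, with summed levels of 9842 to 12752 CPM (counts per 1e+06, scaled by TMM) in UPBIG, 10112 to 14919 CPM in UPSMALL and 7470.0 to 11656 CPM in DOWN libraries. Most of each sum came from Chil3, which averaged 7924, 9670 and 7465 CPM in those groups. Others differed more: Fabp4 averaged 897, 312 and 151 CPM, and Siglecf 42.8, 28.9 and 18.1 CPM. Between UPBIG and DOWN, 7 of the 12 were higher and 1 lower at an adjusted p under 0.05 (edgeR). Markers of other cells moved with the groups. The 12 monocyte and monocyte-derived macrophage markers summed to 2281 to 2945 CPM in UPBIG, 3582 to 4199 CPM in UPSMALL and 4355 to 4893 CPM in DOWN. Most of that sum came from C1qa, C1qb, C1qc and Tgfbi. The defining monocyte markers were further apart: Ccr2 averaged 9.91 CPM in UPBIG, 64.4 CPM in UPSMALL and 184 CPM in DOWN, and Cx3cr1 averaged 1.19, 17.3 and 31.8 CPM in those groups. The 12 dendritic cell markers summed to 8.73 to 13.8 CPM in UPBIG, 15.5 to 44.2 CPM in UPSMALL and 52.6 to 127 CPM in DOWN.

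UPBIG cells had lower transcripts of 5 receptors, of the adaptor gene Myd88 and of the pore protein gene Gsdmd than DOWN cells, and higher transcripts of a DNA sensor and a kinase. Of 35 tested members, 7 were lower and 2 higher in UPBIG than in DOWN at an adjusted p under 0.05 (edgeR's quasi-likelihood test with Benjamini-Hochberg adjustment over all 12625 genes tested). The 7 that fell were the receptors Tlr2, Tlr7, Clec4n, Clec4d and Naip6, the adaptor Myd88 and the pore protein Gsdmd. The 2 that rose were Aim2, which senses cytosolic DNA, and the kinase Syk. These 9 are 25.7% of the tested members, beside 17.5% of all genes tested, of which 8.48% were lower and 9.03% higher. The median log2 fold change was -0.20 over the 35 members and -0.03 over all genes. In these bulk samples, fewer cells of a type and less RNA per cell cannot be told apart.

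Between UPBIG and UPSMALL, 4 of the 35 members differed, and all 4 fell: Tlr2, Myd88, Clec4n and Clec4d. They are 11.4% of the members, beside 5.7% of all genes (2.49% lower, 3.22% higher), and the comparison shares its UPBIG libraries with the one against DOWN. Without UPBIG1, UPBIG4, UPSMALL1 or UPSMALL2 the count was 2. Between UPSMALL and DOWN edgeR called 0 of the 35 members, beside 1.14% of all genes (0.547% lower, 0.594% higher). At an unadjusted p under 0.05 there were 3 (Naip2, Naip5 and Clec4n), a count for which no share of all genes is given here. DESeq2 and limma-voom also called 0. The mean of UPSMALL lay between those of UPBIG and DOWN in 22 of the 35 members (62.9%) and in 50.5% of all genes tested. A joint test for any difference among the 3 groups called Tlr2, Myd88, Gsdmd, Clec4n and Clec4d, 5 of 35 members, a share close to the 13.8% of all genes.

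The direction of these counts was read on edgeR's TMM scale (trimmed mean of M-values), and the scale matters here. TMM factors were 0.858 to 0.896 in UPBIG, 0.992 to 1.17 in UPSMALL and 1.03 to 1.16 in DOWN libraries. With library totals alone, the median log2 fold change of all genes moved to -0.36 between UPBIG and DOWN and to -0.31 between UPBIG and UPSMALL. On that scale 16 members fell and 0 rose between UPBIG and DOWN, and 8 fell and 0 rose between UPBIG and UPSMALL. Of the 12625 genes tested, 3237 fell and 518 rose between UPBIG and DOWN on that scale. Between UPBIG and UPSMALL 1433 fell and 189 rose, so the tilt was not particular to the members. Aim2 and Syk were no longer called, at 0.68 (adjusted p = 0.0896) and 0.09 (adjusted p = 0.613). The 7 members that fell remained called. Those called between UPBIG and DOWN with totals but not with TMM were Tlr4, Cd14, Tirap, Irak4, Nod2, Naip2, Naip5, Pycard and Clec4e, and between UPBIG and UPSMALL they were Tlr7, Tirap, Pycard and Gsdmd.

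Cell type markers moved beside these counts. Between UPBIG and DOWN, 6 of 11 tested monocyte and monocyte-derived markers, 9 of 11 dendritic cell markers and 8 of 10 T and NK cell markers were lower, and of 12 alveolar macrophage markers 7 were higher and 1 lower, the carbonic anhydrase gene Car4, which averaged 17.9 CPM in UPBIG, 127 CPM in UPSMALL and 88.1 CPM in DOWN. Between UPBIG and UPSMALL, 5 of 11 monocyte markers and 2 of 11 dendritic cell markers were lower, and of the alveolar macrophage markers 4 were higher and Car4 was lower. Neutrophil markers summed to 389 to 433 CPM in UPBIG, 187 to 242 CPM in UPSMALL and 160 to 199 CPM in DOWN, mostly from S100a8, while Camp was at 0 in all UPBIG and UPSMALL libraries and Elane in all UPBIG and DOWN libraries. At 0 in whole groups were also the monocyte marker Cd163 (UPBIG and UPSMALL), the T and NK cell markers Ncr1 (UPBIG and UPSMALL) and Gzma (UPSMALL), the dendritic cell marker Siglech (UPSMALL) and the epithelial markers Lamp3 (UPSMALL) and Sftpb (DOWN). T and NK cell markers summed to 33.9 to 69.9 CPM in UPBIG, 22.0 to 54.5 CPM in UPSMALL and 75.7 to 151 CPM in DOWN. B cell markers summed to 66.6 to 97.5 CPM in UPBIG, 43.8 to 68.9 CPM in UPSMALL and 51.9 to 69.9 CPM in DOWN, and epithelial markers to 18.8 to 265 CPM, 12.2 to 54.9 CPM and 9.20 to 16.2 CPM in those groups. The part of these cells in the results on pattern receptors was not tested.

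**Figure D1:**
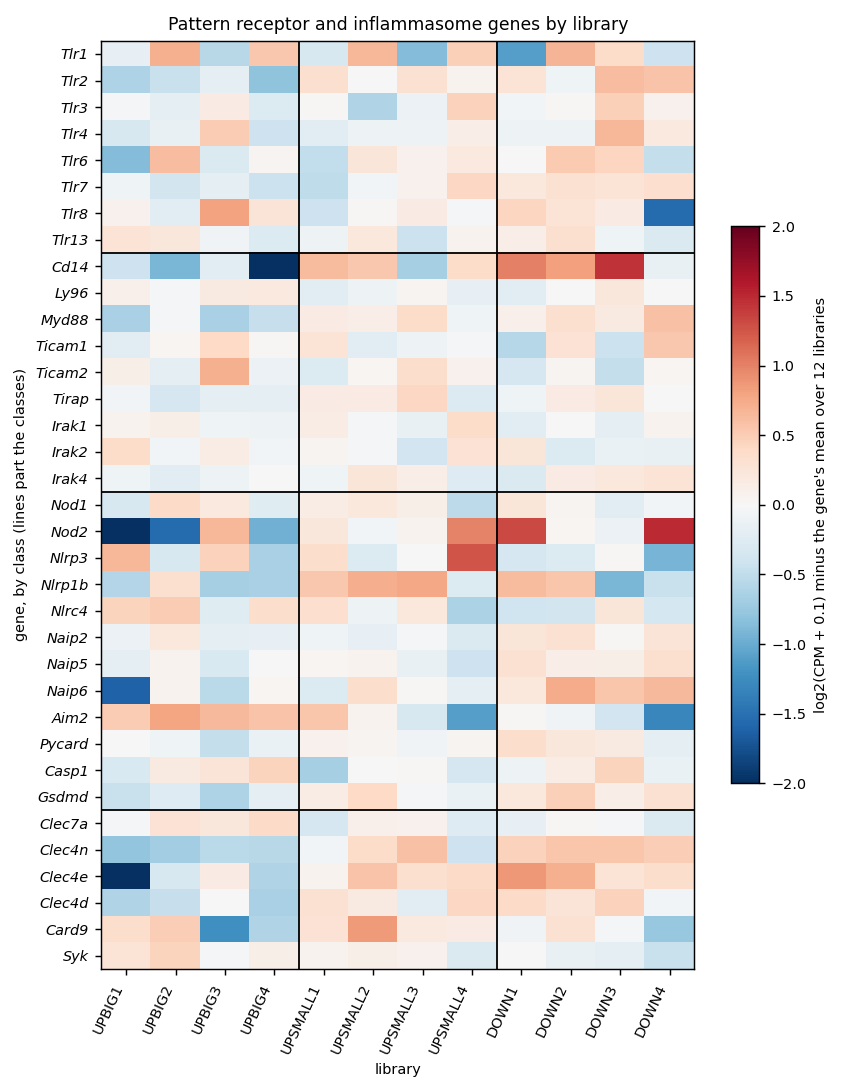
Log2 level of each of the 35 tested genes in each of the 12 libraries (columns, UPBIG, UPSMALL, DOWN), as log2(CPM + 0.1) minus the gene's own mean over the libraries, on a colour scale that stops at -2 and 2. Clec4n and Gsdmd are blue in all 4 UPBIG columns and red in all 4 DOWN columns; Aim2 is red in all 4 UPBIG columns.

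Among the Toll-like receptors, Tlr2 fell in UPBIG and was the most abundant. TLR2 (ENSMUSG00000027995, chr3:83836272-83841767, minus strand, GRCm38) binds bacterial lipoproteins as a partner of TLR1 or TLR6. It stood at 108, 121, 143 and 94.6 CPM in the UPBIG libraries, at 206, 163, 203 and 173 CPM in UPSMALL and at 199, 156, 252 and 244 CPM in DOWN. Every UPBIG library lay below every UPSMALL and every DOWN library, and UPSMALL and DOWN overlapped. It fell by 0.87 ± 0.15 (SE) on the log2 scale between UPBIG and DOWN (edgeR adjusted p = 0.000535) and by 0.67 ± 0.15 between UPBIG and UPSMALL (adjusted p = 0.0106). Both calls held in all 12 fits that left out a library.

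Tlr7 also fell, by less. TLR7 (ENSMUSG00000044583, chrX:167304929-167330558, minus strand) senses single-stranded RNA in endosomes. It stood at 49.0, 40.3, 46.0 and 38.6 CPM in UPBIG, at 36.6, 50.3, 55.3 and 69.6 CPM in UPSMALL and at 60.3, 64.4, 63.1 and 65.7 CPM in DOWN. UPBIG and DOWN did not overlap, DOWN was the tightest group, and UPSMALL spread across both. Tlr7 fell by 0.54 ± 0.15 (SE) on the log2 scale between UPBIG and DOWN (edgeR adjusted p = 0.0185). The call was lost without UPBIG2 (adjusted p = 0.0579), UPBIG4 (0.0612) or DOWN2 (0.0512).

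Tlr13, which in mice senses bacterial ribosomal RNA, was the next most abundant receptor per kb and was not called. It stood at 99.8, 97.4, 79.0 and 68.3 CPM in UPBIG, at 77.0, 95.5, 61.3 and 87.4 CPM in UPSMALL and at 91.3, 104, 78.3 and 67.9 CPM in DOWN. The groups overlapped, and the log2 fold change between UPBIG and DOWN was 0.01 ± 0.16 (SE; edgeR adjusted p = 0.969). It turned negative with library totals alone, with limma-voom and in 4 of 12 fits that left out a library.

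The other 5 tested Toll-like receptors were called in no comparison on the TMM scale. Tlr4 was called with library totals alone between UPBIG and DOWN (-0.56, edgeR adjusted p = 0.0456). Tlr4, the lipopolysaccharide receptor, averaged 35.9 ± 11.5 CPM in UPBIG, 35.4 ± 3.91 CPM in UPSMALL and 42.6 ± 11.4 CPM in DOWN (SD, n = 4 each). Tlr3, which senses viral RNA, averaged 10.7 ± 1.44 CPM in UPBIG, 11.1 ± 3.36 CPM in UPSMALL and 12.4 ± 2.17 CPM in DOWN. Tlr8 averaged 8.09, 6.40 and 6.64 CPM in the same groups. Tlr1 and Tlr6, partners of TLR2, averaged 10.3 and 7.04 CPM in UPBIG, 9.58 and 7.32 CPM in UPSMALL and 9.11 and 8.04 CPM in DOWN. Both are closely related neighbours with fractional counts in 11 of 12 libraries, so reads may be split between them. Per kb of merged exon, the order was Tlr2, Tlr13, Tlr7 and Tlr4 in each group, at 38.7, 20.0, 10.6 and 6.47 CPM per kb in UPBIG and 70.6, 19.8, 15.5 and 7.66 CPM per kb in DOWN. The other 4 lay between 1.79 and 3.09 CPM per kb, and neighbours in that order did not differ beyond the spread of their libraries.

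Among co-receptors, adaptors and kinases, Myd88 fell and its companions mostly did not. MyD88 (ENSMUSG00000032508, chr9:119335934-119341411, minus strand) carries the signal of most Toll-like receptors and of the interleukin-1 receptor. It stood at 25.7, 39.2, 25.7 and 29.3 CPM in UPBIG, at 45.4, 44.3, 51.7 and 37.9 CPM in UPSMALL and at 43.3, 50.4, 45.8 and 60.5 CPM in DOWN. UPBIG lay below DOWN in every library, while UPBIG2 lay above the lowest UPSMALL library. Its log2 fold change was -0.74 ± 0.16 (SE) between UPBIG and DOWN (edgeR adjusted p = 0.00251), held in all 12 fits that left out a library, and -0.58 ± 0.16 between UPBIG and UPSMALL (adjusted p = 0.0320). The call against UPSMALL was lost without UPBIG1, UPBIG3, UPBIG4, UPSMALL1, UPSMALL2 or UPSMALL3, at adjusted p up to 0.110. Myd88 shares exonic bases with Acaa1a on the other strand, and whether counting used strand is not given in the sources used here. Acaa1a itself had a log2 fold change of 0.02 ± 0.16 between UPBIG and DOWN (adjusted p = 0.948).

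Cd14, the co-receptor that hands lipopolysaccharide to TLR4, showed the largest difference of its class but missed the threshold. It stood at 73.4, 51.4, 84.2 and 17.7 CPM in UPBIG, at 151, 142, 61.5 and 126 CPM in UPSMALL and at 195, 172, 264 and 87.7 CPM in DOWN. UPBIG and DOWN did not overlap, with UPBIG4 far below the other UPBIG libraries and DOWN4 close to the highest UPBIG library. Between UPBIG and DOWN the log2 fold change was -1.66 ± 0.51 (SE; edgeR adjusted p = 0.0503). It passed under DESeq2 (adjusted p = 0.00702), limma-voom (0.0289), a stricter filter (0.0427) and library totals (0.0158), and without UPSMALL3 (0.0456) or DOWN4 (0.0357).

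Ly96, which encodes the TLR4 partner MD-2, averaged 65.7 ± 4.76 CPM in UPBIG, 56.7 ± 4.71 CPM in UPSMALL and 61.3 ± 7.69 CPM in DOWN (SD, n = 4 each). The kinases that act behind MyD88 were not called either: Irak1 averaged 53.5, 57.1 and 50.4 CPM, Irak2 28.1, 26.0 and 24.9 CPM, and Irak4 18.9, 20.6 and 21.7 CPM in UPBIG, UPSMALL and DOWN. Nor were the adaptors Tirap, which bridges TLR2 and TLR4 to MyD88, and Ticam1 (TRIF) and Ticam2 (TRAM), which form the MyD88-independent arm. Their log2 fold changes between UPBIG and DOWN were -0.28 ± 0.19, 0.05 ± 0.27 and 0.34 ± 0.22 (SE). With library totals alone, Tirap was called between UPBIG and DOWN (edgeR adjusted p = 0.0252) and between UPBIG and UPSMALL (0.0476), and Irak4 between UPBIG and DOWN (0.0211). Tirap, Irak4 and Ticam2 each share exonic bases with a neighbour. Per kb, Cd14 at 32.7 CPM stood below Ly96 at 64.4 CPM in UPBIG but above it in UPSMALL (69.3 against 55.5 CPM) and in DOWN (104 against 60.0 CPM). The SD of Cd14 in UPSMALL was 23.4 CPM per kb, and the order there depends on the length used. With the longest transcript, Cd14 stood below Ly96 in UPSMALL (73.2 against 85.1 CPM per kb) and above it in DOWN (110 against 92.0).

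**Figure D2:**
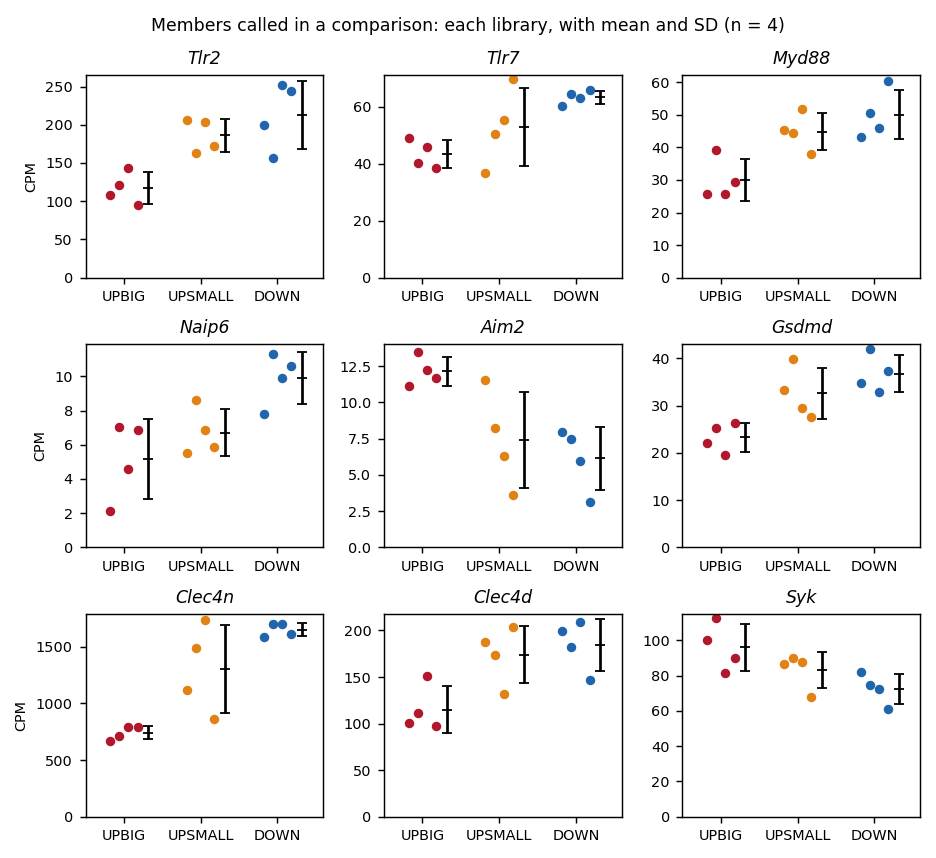
CPM of the 9 members called in a pairwise comparison, with a point for each library and a bar for the mean and SD of 4 libraries. Clec4n sits between 669.5 and 792 CPM in UPBIG and between 1586 and 1699 CPM in DOWN, while its UPSMALL libraries run between 862 and 1737 CPM.

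In the inflammasome class, the pore protein and a flagellin sensor fell while the DNA sensor rose. Gasdermin D (Gsdmd, ENSMUSG00000022575, chr15:75862327-75867408, plus strand) stood at 22.0, 25.3, 19.6 and 26.4 CPM in UPBIG, at 33.4, 39.9, 29.4 and 27.6 CPM in UPSMALL and at 34.9, 41.9, 32.9 and 37.3 CPM in DOWN. Every UPBIG library lay below every library of both other groups. Gsdmd fell by 0.66 ± 0.15 (SE) on the log2 scale between UPBIG and DOWN (edgeR adjusted p = 0.00409), held in all 12 fits that left out a library. Between UPBIG and UPSMALL it was -0.48 ± 0.15 and missed the threshold (adjusted p = 0.0643), which it passed under DESeq2 (0.0448), the stricter filter (0.0484) and library totals (0.00330), with the replicate number as a block (0.0280), and without UPSMALL4 (0.0492).

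Aim2 (ENSMUSG00000037860, chr1:173350879-173466040, plus strand), the DNA sensor, stood at 11.2, 13.5, 12.2 and 11.7 CPM in UPBIG, at 11.5, 8.25, 6.27 and 3.60 CPM in UPSMALL and at 7.96, 7.46, 5.98 and 3.11 CPM in DOWN. UPBIG was tight and lay above every DOWN library, and UPSMALL1 reached the UPBIG range. Aim2 rose by 0.98 ± 0.31 (SE) on the log2 scale between UPBIG and DOWN (edgeR adjusted p = 0.0339). The call was lost without UPBIG1, UPBIG2, UPBIG3, UPBIG4, DOWN3 or DOWN4, at adjusted p up to 0.0833, and with library totals alone. Naip6 (ENSMUSG00000078942, chr13:100281121-100317674, minus strand), which recognises bacterial flagellin, stood at 2.12, 7.05, 4.57 and 6.89 CPM in UPBIG, at 5.52, 8.59, 6.85 and 5.88 CPM in UPSMALL and at 7.79, 11.3, 9.89 and 10.6 CPM in DOWN. UPBIG and DOWN were apart, and UPBIG1 was the lowest of all 12. Its log2 fold change was -0.94 ± 0.30 (SE) between UPBIG and DOWN (edgeR adjusted p = 0.0348), lost without UPBIG1, UPBIG3, DOWN2, DOWN3 or DOWN4, at adjusted p up to 0.0951, and in a fit restricted to the UPBIG and DOWN libraries (0.0501).

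The Naip genes are closely related copies in a row on chromosome 13, with fractional counts in 11 or 12 of 12 libraries, so the value of each is uncertain. Naip2, whose product recognises the rod protein of bacterial secretion systems, averaged 65.5 ± 8.96 CPM in UPBIG, 61.4 ± 4.68 CPM in UPSMALL and 78.5 ± 6.62 CPM in DOWN. Naip5, another flagellin sensor, averaged 47.5 ± 5.59 CPM in UPBIG, 47.4 ± 6.99 CPM in UPSMALL and 59.4 ± 4.29 CPM in DOWN (SD, n = 4 each). For both, every UPSMALL library lay below every DOWN library, and for Naip5 so did every UPBIG library, but none of these differences was called on the TMM scale (edgeR adjusted p of 0.0987 to 0.271). Naip2 (-0.58, adjusted p = 0.00258) and Naip5 (-0.64, adjusted p = 0.00121) were called between UPBIG and DOWN with library totals alone. Nlrc4, which the NAIP proteins recruit, was much lower than Naip2 and Naip5 per kb, at 1.18 CPM against 13.5 and 9.14 CPM in UPBIG, and was not called.

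Pycard, which encodes the adaptor ASC, and Casp1 were the most abundant inflammasome genes per kb. Pycard stood at 275, 259.7, 198 and 252 CPM in UPBIG, at 294, 287, 263 and 285 CPM in UPSMALL and at 351, 324, 313 and 243 CPM in DOWN. UPBIG and DOWN overlapped only through DOWN4. The log2 fold change between UPBIG and DOWN was -0.32 ± 0.12 (SE; edgeR adjusted p = 0.0845), and it passed under limma-voom (0.0339), the replicate block (0.0367) and library totals (0.000966) and without DOWN4 (0.0263). Its counts were fractional in all 12 libraries. Casp1 averaged 100.3 ± 20.3 CPM in UPBIG, 77.1 ± 16.6 CPM in UPSMALL and 96.5 ± 18.9 CPM in DOWN (SD, n = 4 each) and was not called.

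The ratio of Gsdmd to Casp1 CPM within a library averaged 0.239 ± 0.0506 in UPBIG, 0.436 ± 0.113 in UPSMALL and 0.392 ± 0.0843 in DOWN (SD, n = 4 each). A two-sided exact permutation test gave p = 0.0571 between UPBIG and DOWN and p = 0.0286 between UPBIG and UPSMALL, the smallest value possible with 4 libraries a group. Adjusted over the 15 ratio tests run, both were 0.0857, so neither passed. The ratios were chosen after the values were seen.

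Of the remaining sensors, Nlrp3, Nlrp1b and Nod2 were scarce, and Nod1 was less so. Nod1, which binds bacterial peptidoglycan fragments, averaged 17.2 ± 4.09 CPM in UPBIG, 16.9 ± 3.55 CPM in UPSMALL and 16.9 ± 2.23 CPM in DOWN (SD, n = 4 each). Nlrp3, the sensor of membrane damage and ion flux, averaged 2.09 ± 0.903 CPM in UPBIG, 2.63 ± 1.40 CPM in UPSMALL and 1.47 ± 0.405 CPM in DOWN. Nlrp1b averaged 1.65, 3.00 and 2.25 CPM in the same groups, and Nod2, another peptidoglycan sensor, 0.559, 1.18 and 1.70 CPM. On the TMM scale none of these was called with all 12 libraries. Nod2 had an edgeR adjusted p of 0.133 between UPBIG and DOWN; it passed without UPBIG3 (0.0193) and with library totals alone (-1.93, adjusted p = 0.0479). The SEs of the log2 fold changes between UPBIG and DOWN were 0.47 for Nlrp3, 0.45 for Nlrp1b and 0.70 for Nod2.

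**Figure D3:**
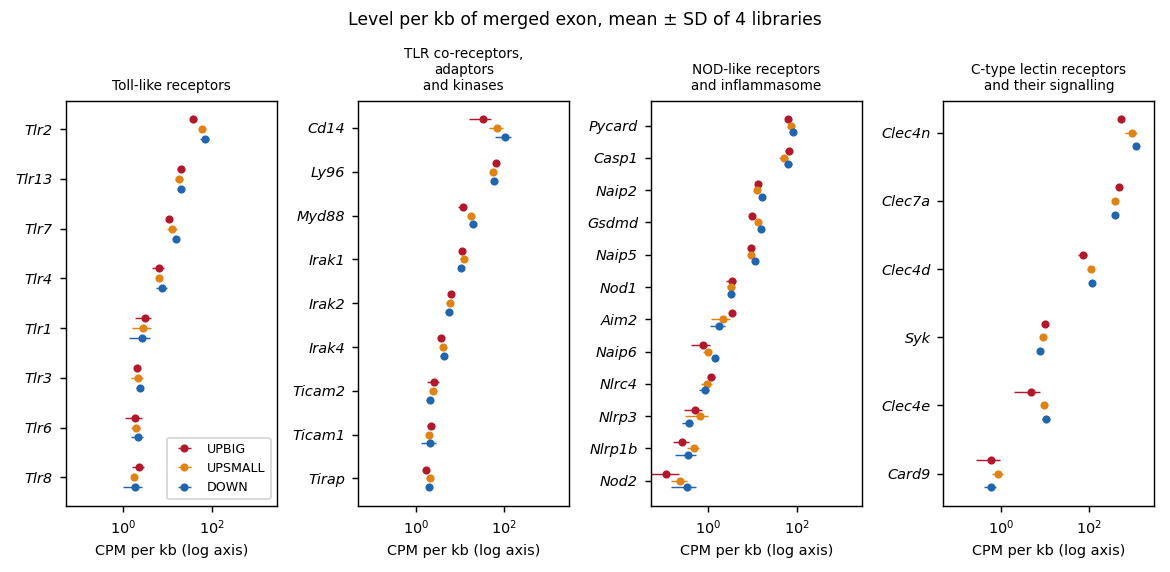
Levels of the 35 tested members in CPM per kb of merged exon on a log axis, mean and SD of 4 libraries in UPBIG, UPSMALL and DOWN, in 4 classes ordered by level. Clec4n and Clec7a stand above all other members, and Nod2, at 0.112 to 0.339 CPM per kb, is the lowest.

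The C-type lectin receptors held the most abundant members and the largest called fall. Clec4n (ENSMUSG00000023349, chr6:123229843-123247021, plus strand) encodes Dectin-2, a receptor for fungal mannans. It stood at 669.5, 714, 792 and 788 CPM in UPBIG, at 1115, 1487, 1737 and 862 CPM in UPSMALL and at 1586, 1699, 1697 and 1613 CPM in DOWN. UPBIG and DOWN were tight groups far apart, and UPSMALL spread between them, with UPSMALL4 nearest to UPBIG and UPSMALL3 above DOWN. Clec4n had log2 fold changes of -1.15 ± 0.16 (SE) between UPBIG and DOWN (edgeR adjusted p = 4.88e-05) and -0.81 ± 0.16 between UPBIG and UPSMALL (adjusted p = 0.00348). Both held in all 12 fits that left out a library.

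Clec4d (ENSMUSG00000030144, chr6:123262111-123275265, plus strand), which encodes a partner of Mincle and Dectin-2, fell as well. It stood at 100.2, 111, 151 and 97.9 CPM in UPBIG, at 188, 173, 132 and 203 CPM in UPSMALL and at 199.6, 182, 209 and 147 CPM in DOWN. UPBIG3 overlapped both other groups, and the other UPBIG libraries lay below them. The log2 fold change was -0.68 ± 0.16 (SE) between UPBIG and DOWN (edgeR adjusted p = 0.00476), held in all 12 fits that left out a library, and -0.60 ± 0.16 between UPBIG and UPSMALL (adjusted p = 0.0280), lost without UPBIG1, UPBIG2, UPBIG4, UPSMALL1, UPSMALL2 or UPSMALL4, at adjusted p up to 0.101.

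Clec7a, which encodes Dectin-1, the receptor for fungal beta-glucan, was not called. It stood at 1061, 1323, 1273 and 1414 CPM in UPBIG, at 862, 1164, 1150.1 and 909.7 CPM in UPSMALL and at 972, 1099, 1072 and 884 CPM in DOWN. UPBIG was above all DOWN libraries but for UPBIG1. The log2 fold change between UPBIG and DOWN was 0.33 ± 0.13 (SE; edgeR adjusted p = 0.0808). It passed under DESeq2 (0.0389), limma-voom (0.0441), no low-count filter (0.0348), the replicate block (0.0218) and a fit restricted to the UPBIG and DOWN libraries (0.0421), and without UPBIG1 (0.0455) or UPSMALL4 (0.0458). With library totals alone it was 0.01 (adjusted p = 0.943).

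The balance of both Dectins can be read within each library, free of scaling. The ratio of Clec4n to Clec7a CPM within a library averaged 0.587 ± 0.0457 in UPBIG, 1.26 ± 0.232 in UPSMALL and 1.65 ± 0.123 in DOWN (SD, n = 4 each), and no groups overlapped. A two-sided exact permutation test gave p = 0.0286 for each of the 3 pairs, which is the lowest it can reach here, and 0.0857 when adjusted for 15 ratio tests. A ratio at that lowest value passes the adjustment only if many of the 15 tests reach it too. The adjusted test therefore could not decide whether the balance differed. Per kb, Clec4n stood at 522 CPM and Clec7a at 481 CPM in UPBIG, and at 1161 and 382 CPM in DOWN. The order in UPBIG depends on the length used: with the longest transcript, Clec4n stood at 528 and Clec7a at 557 CPM per kb.

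Clec4e encodes Mincle, the receptor for mycobacterial cord factor. It stood at 5.11, 29.1, 40.5 and 23.7 CPM in UPBIG, at 38.0, 54.1, 45.5 and 47.4 CPM in UPSMALL and at 66.1, 59.6, 43.8 and 46.5 CPM in DOWN. All UPBIG libraries lay below DOWN, with UPBIG1 far under the others. The log2 fold change between UPBIG and DOWN was -1.13 ± 0.46 (SE; edgeR adjusted p = 0.125), and without UPBIG1 it was -0.79 and passed (adjusted p = 0.00821), as it did with library totals (0.0402).

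Behind these receptors, Syk rose and Card9 was scarce. The kinase gene Syk (ENSMUSG00000021457, chr13:52583173-52648792, plus strand) stood at 100.1, 112, 81.6 and 90.0 CPM in UPBIG, at 86.5, 89.9, 87.5 and 67.8 CPM in UPSMALL and at 81.9, 74.4, 72.6 and 60.9 CPM in DOWN. UPBIG3 lay just below the highest DOWN library, and the other UPBIG libraries lay above. Syk rose by 0.41 ± 0.13 (SE) on the log2 scale between UPBIG and DOWN (edgeR adjusted p = 0.0364). It was lost without UPBIG1, UPBIG2, DOWN2, DOWN3 or DOWN4, at adjusted p up to 0.130, and with library totals alone. Card9, the adaptor downstream of SYK, averaged 1.41 ± 0.755 CPM in UPBIG, 2.02 ± 0.524 CPM in UPSMALL and 1.41 ± 0.423 CPM in DOWN (SD, n = 4 each) and was not called.

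**Figure D4:**
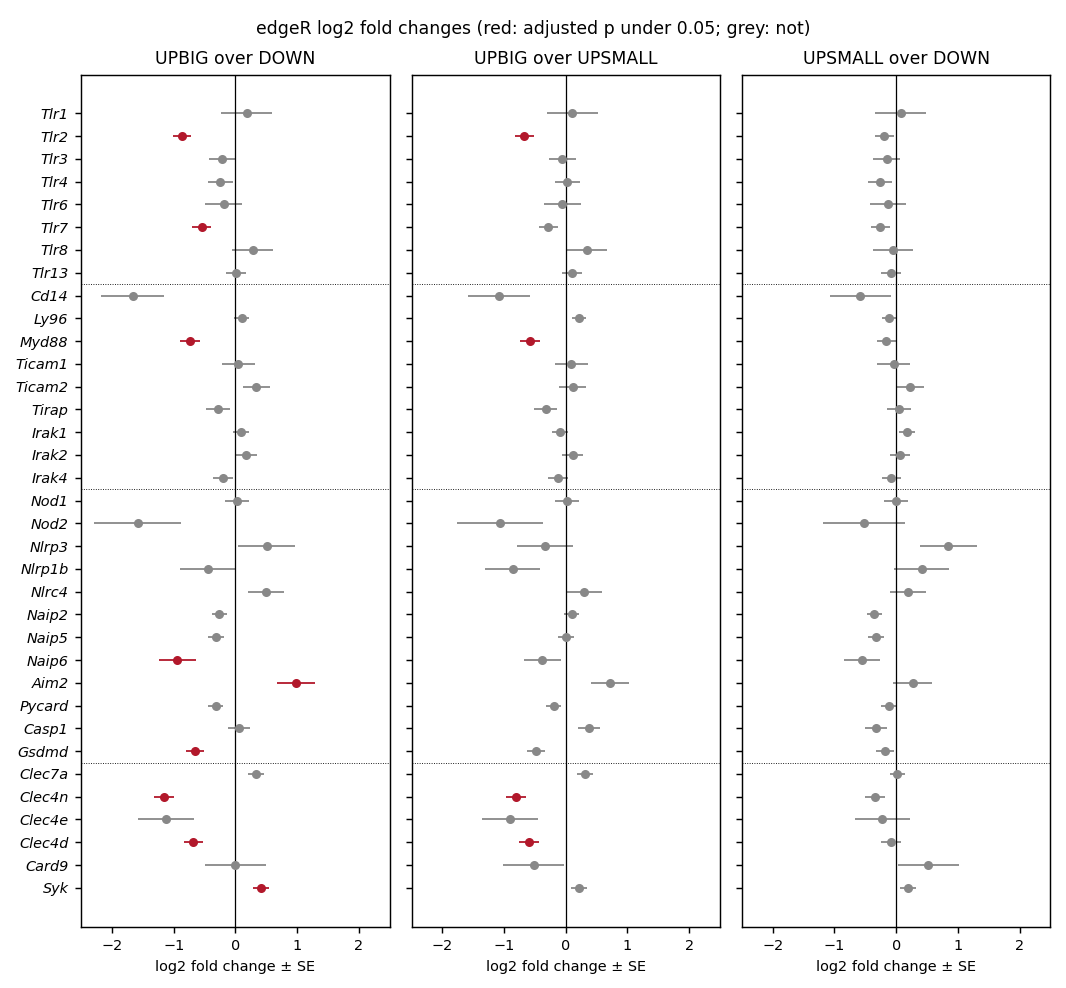
Log2 fold changes with SE of the 35 tested members for UPBIG over DOWN, UPBIG over UPSMALL and UPSMALL over DOWN, with lines between the classes and edgeR calls in red. The left panel has 9 red points, 7 of them below 0, the middle panel 4, all below 0, and the right panel none.

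Without overlap between the libraries of UPBIG and DOWN, 9 members were lower and 1 was higher, where 10.3% and 11.0% of all genes tested were. Those lower were Tlr2, Tlr7, Cd14, Myd88, Naip5, Naip6, Gsdmd, Clec4n and Clec4e, and the higher was Aim2. Between UPBIG and UPSMALL, Tlr2, Gsdmd and Clec4n were lower without overlap, beside 5.35% of all genes, and between UPSMALL and DOWN Naip2 and Naip5 were, beside 4.38%. No member was higher without overlap in these 2 comparisons, where 6.48% and 3.87% of all genes were.

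Clec4n and Clec4d lie next to each other in the Clec4 lectin cluster (chr6:122921848-123289870, GRCm38), and most of its measured genes were lower in UPBIG. Of 9 cluster genes with a row, 7 were tested; Clec4a4 and Clec4b2 had totals of 16 and 24 counts over the 12 libraries and were not. Between UPBIG and DOWN 5 of the 7 fell and all 7 were negative, where 8.48% of all genes tested fell and 53.0% were negative. The cluster was taken up after its values were seen, and Clec4n and Clec4d count among the 5, so these shares only describe it. The 5 were Clec4a1 (-1.04 ± 0.35, SE; edgeR adjusted p = 0.0496, but called only without UPBIG4, UPSMALL3 or UPSMALL4 among the fits that left out a library; adjusted p reached 0.133 in the others), Clec4b1 (-1.23 ± 0.26; 0.00424), Clec4a2 (-1.21 ± 0.17; 7.29e-05), Clec4n and Clec4d. The other cluster genes, Clec4a3 and Clec4e, were at -0.27 ± 0.13 (adjusted p = 0.171) and -1.13 ± 0.46. Clec4a2, which encodes the inhibitory receptor DCIR, averaged 95.7 ± 21.5 CPM in UPBIG, 198 ± 36.8 CPM in UPSMALL and 221 ± 42.4 CPM in DOWN (SD, n = 4 each). Between UPBIG and UPSMALL Clec4b1 (-0.95 ± 0.26, adjusted p = 0.0466, called in 4 of 12 fits that left out a library), Clec4a2 (-1.05 ± 0.17, adjusted p = 0.000772), Clec4n and Clec4d fell, and between UPSMALL and DOWN edgeR called 0 of the 7. Clec7a lies apart from the cluster on the same chromosome (chr6:129461591-129472779, minus strand).

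**Figure D5:**
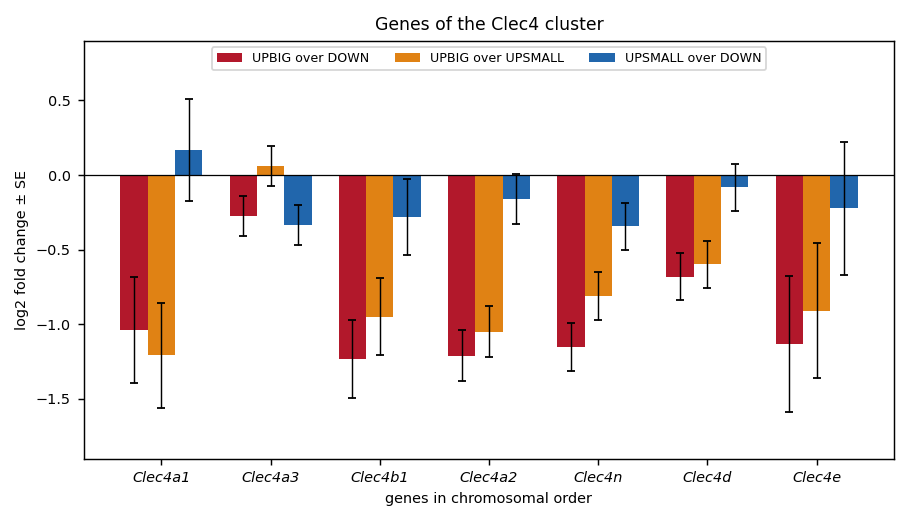
Log2 fold changes with SE of the 7 tested genes of the Clec4 cluster in chromosomal order, for UPBIG over DOWN, UPBIG over UPSMALL and UPSMALL over DOWN. All 7 bars for UPBIG over DOWN are negative, with Clec4a3 the shortest at -0.27; the bars for UPSMALL over DOWN lie between -0.34 and 0.17.

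The promoters of 3 cluster genes that fell and of Clec7a, which was not called, are shown because these genes share a region or a pathway. Each line holds the 250 bases before the RefSeq start on GRCm38.p6, 5′ to 3′ on the gene's strand. Capitals mark GAGGAA, the core bound by the myeloid factor PU.1, read on either strand (TTCCTC is its reverse complement). The Clec4b1 window is chr6:123049712-123049961, Clec4a2 is chr6:123122440-123122689 and Clec4d is chr6:123261857-123262106, all on the plus strand, and Clec7a is chr6:129472780-129473029 on the minus strand. The RefSeq start of Clec4a2 lies inside the longer gene model used for its coordinates, and Clec7a has another RefSeq start 6 bases away. The promoter of Clec4n was not analysed here.
Clec4b1: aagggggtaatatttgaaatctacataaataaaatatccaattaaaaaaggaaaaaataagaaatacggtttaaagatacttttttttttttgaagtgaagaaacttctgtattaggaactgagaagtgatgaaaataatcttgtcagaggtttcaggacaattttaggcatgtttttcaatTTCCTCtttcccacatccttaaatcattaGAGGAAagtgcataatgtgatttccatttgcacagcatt
Clec4a2: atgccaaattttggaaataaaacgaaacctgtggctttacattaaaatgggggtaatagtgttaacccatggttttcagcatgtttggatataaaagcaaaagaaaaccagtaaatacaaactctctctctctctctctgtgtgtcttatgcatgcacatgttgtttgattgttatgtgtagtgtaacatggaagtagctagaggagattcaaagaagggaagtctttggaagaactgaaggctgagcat
Clec4d: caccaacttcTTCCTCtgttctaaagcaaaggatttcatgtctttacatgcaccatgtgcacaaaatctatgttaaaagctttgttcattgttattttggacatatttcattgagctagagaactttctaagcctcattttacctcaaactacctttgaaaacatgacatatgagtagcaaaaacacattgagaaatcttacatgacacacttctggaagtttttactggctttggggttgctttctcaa
Clec7a: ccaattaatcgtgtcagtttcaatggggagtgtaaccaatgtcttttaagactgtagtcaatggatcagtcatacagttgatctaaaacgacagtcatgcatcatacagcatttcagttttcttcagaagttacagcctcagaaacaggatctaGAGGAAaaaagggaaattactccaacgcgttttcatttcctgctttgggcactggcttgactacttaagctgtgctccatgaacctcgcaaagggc

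The PU.1 core stood at 68 and 39 bases before the start in Clec4b1, at 240 in Clec4d and at 96 in Clec7a, and these letters are not in the Clec4a2 window. Over the group, 29 of the 36 members matched a RefSeq window, with 38 windows in all since some genes have several starts, which overlap. The PU.1 core was in 39.5% of these and in 23.4% of all 32536 windows of the same length. The NF-kB motif, searched as GGG, any 5 bases and CC, and like the others on both strands, was in 39.5% of member windows and 46.0% of all windows. The C/EBP motif TTGCNNAA was in 18.4% and 9.57%, the E-box CACGTG in 7.89% and 6.04%, and the AP-1 motif TGANTCA in 2.63% and 6.73%. A match is a description of the letters, not a bound site.

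Genes that work with the members, listed by pathway, moved in both directions. Of 86 such companion genes, 85 have a row and 79 were tested; 8 rose and 13 fell between UPBIG and DOWN, 6 rose and 3 fell between UPBIG and UPSMALL, and 1 rose between UPSMALL and DOWN. Those called are 26.6%, 11.4% and 1.27% of the tested companions, beside 17.5%, 5.7% and 1.14% of all genes. Without UPBIG2 the middle count fell to 3 and without UPBIG3 to 5. The last call was lost without UPSMALL1, UPSMALL3, UPSMALL4, DOWN1 or DOWN2, and without DOWN4 there were 2. With library totals alone, 5 rose and 31 fell between UPBIG and DOWN, where 518 of all genes rose and 3237 fell. Between UPBIG and UPSMALL 3 rose and 17 fell, where 189 of all genes rose and 1433 fell. The median log2 fold change over the 79 was -0.04 between UPBIG and DOWN, close to the -0.03 of all genes.

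Among lectin companions, Clec1b rose in every comparison. It encodes CLEC-2, the receptor for podoplanin, which also signals through SYK. It stood at 30.0, 49.4, 31.9 and 40.0 CPM in UPBIG, at 19.3, 16.3, 19.2 and 19.6 CPM in UPSMALL and at 9.18, 10.1, 13.1 and 11.4 CPM in DOWN, and no groups overlapped. The log2 fold change was 1.79 ± 0.18 (SE) between UPBIG and DOWN (edgeR adjusted p = 8.48e-07), 1.02 ± 0.17 between UPBIG and UPSMALL (0.000884) and 0.76 ± 0.17 between UPSMALL and DOWN (0.0357). The call between UPSMALL and DOWN was lost with library totals alone and in 5 of 12 fits that left out a library, those without UPSMALL1, UPSMALL3, UPSMALL4, DOWN1 or DOWN2 (adjusted p up to 0.106). It was the 1 companion called in all 3 comparisons. Tyrobp, which encodes the adaptor DAP12, averaged 7201 ± 683 CPM in UPBIG, 5133 ± 677 CPM in UPSMALL and 4555 ± 249 CPM in DOWN (SD, n = 4 each), and rose by 0.66 ± 0.12 on the log2 scale against DOWN and 0.49 ± 0.12 against UPSMALL (edgeR adjusted p = 0.000764 and 0.0198). The call against UPSMALL was lost without UPBIG1, UPBIG2 or UPSMALL3 (up to 0.0705). Clec5a, a receptor that pairs with DAP12, was higher in UPBIG than in UPSMALL (0.40 ± 0.11, adjusted p = 0.0433; of 12 fits that left out a library, called only without UPBIG1, UPBIG3 or DOWN4).

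Of 22 tested inflammasome companions, 5 rose and 2 fell between UPBIG and DOWN. Those called are 31.8%, beside 17.5% of all genes (9.03% higher, 8.48% lower). Among the 2 that fell, Ripk2 was at -0.64 ± 0.21 (SE; edgeR adjusted p = 0.0418). The Ripk2 call was lost without UPBIG2, UPBIG4, UPSMALL2, DOWN2, DOWN3 or DOWN4 (up to 0.164). Il18bp, the secreted antagonist of interleukin-18, averaged 160.1 ± 24.1 CPM in UPBIG, 41.1 ± 23.6 CPM in UPSMALL and 40.2 ± 13.6 CPM in DOWN (SD, n = 4 each), with log2 fold changes of 1.99 ± 0.37 against DOWN and 1.96 ± 0.37 against UPSMALL (SE; edgeR adjusted p = 0.00360 and 0.00982). Both held in all 12 fits that left out a library. Txnip, a thioredoxin-binding protein reported to act on NLRP3, rose by 0.71 ± 0.14 against DOWN (adjusted p = 0.00147). Il1a, which encodes interleukin-1 alpha, averaged 63.0 ± 18.3 CPM in UPBIG, 24.0 ± 5.21 CPM in UPSMALL and 25.8 ± 14.1 CPM in DOWN. Its log2 fold changes were 1.29 ± 0.35 against DOWN (adjusted p = 0.0265, lost without UPBIG3, DOWN1 or DOWN2, up to 0.0708) and 1.40 ± 0.36 against UPSMALL (0.0426, called only without DOWN3 or DOWN4 among those fits). Casp8, an initiator caspase, rose by 0.48 ± 0.14 against DOWN (adjusted p = 0.0195, lost without UPBIG3, UPBIG4 or DOWN1, up to 0.0634) and 0.52 ± 0.14 against UPSMALL (0.0303, lost without UPBIG2, UPBIG3, UPBIG4, UPSMALL1 or UPSMALL4, up to 0.0980).

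Of 24 tested Toll-like receptor companions, 0 rose and 3 fell by edgeR between UPBIG and DOWN. Those called are 12.5%, beside 17.5% of all genes (8.48% lower, 9.03% higher). Among the 3, Irf5, a transcription factor that acts behind MyD88, was at -0.73 ± 0.15 (SE; edgeR adjusted p = 0.00206). Ly86, which encodes MD-1, the partner of the TLR4 homologue RP105, was at -0.52 ± 0.14 (0.0158, lost without UPBIG3, DOWN2 or DOWN3, up to 0.0565). The other was Irak3, at -0.63 ± 0.21 (0.0436, lost without UPBIG1, UPBIG2, UPSMALL3, DOWN1, DOWN3 or DOWN4, up to 0.132). Irf5 also fell against UPSMALL, by 0.57 ± 0.15 on the log2 scale (0.0295, lost without the same 5 libraries as Casp8, up to 0.105). Of 14 cytosolic nucleic acid sensing genes, 1 rose and 2 fell between UPBIG and DOWN (21.4%, beside 17.5% of all genes). Ifi203, a relative of Aim2, fell by 0.88 ± 0.16 on the log2 scale (edgeR adjusted p = 0.000605) and Sting1, the sensor of cyclic dinucleotides, by 0.70 ± 0.17 (0.00642). Mavs, the adaptor of the RIG-I-like receptors, rose by 0.58 ± 0.17 (0.0235, lost without UPBIG2, UPBIG4, DOWN1 or DOWN2, up to 0.110).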

How the data were processed

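Libraries were made from lysed cells with a full-length SMART-Seq kit, per the labels' protocols, so the values carry unequal transcript capture and amplification. The deposited values are expected counts per gene and library, estimated by the authors with RSEM from reads aligned with STAR to mm10, per the submitters' processing notes. No version, annotation release or strand setting is given in the sources used here. Of all values, 13.8% are not whole. Symbols, positions and lengths came from GENCODE M21 on GRCm38, where 26775 identifiers matched, and promoters from RefSeq (GRCm38.p6).

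Counts were rounded and filtered with filterByExpr, and edgeR 4.0.16 under R 4.3.3 fitted the 12 libraries in 1 model (TMM, robust quasi-likelihood F tests, no block). Benjamini-Hochberg adjusted p under 0.05 over 12625 genes counted as a call. Standard errors were derived from each fold change (log2) and its F statistic. CPM uses TMM-scaled totals; per kb uses merged exon length. Library totals set the precision of each value, and without molecular identifiers PCR copies cannot be told from molecules. Within-library ratios were compared by exact permutation.

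Every called member and the most abundant uncalled member of each class is named with all libraries, and companion genes called at a mean log2 CPM of 3 or more, at most 6 a comparison and direction. Clec4e, Clec1b by library, Ripk2, Irak3 and cluster genes were added after their values were seen. The members and lists were chosen with earlier results of these data known. Alternatives were DESeq2 1.42.0 and its size factors, limma-voom 3.58.1 with quality weights, library totals, no filter, 5 CPM in 4 libraries, unrounded counts, only the 8 libraries compared, a replicate block, the longest transcript as length, and each library left out. The fit was tested on simulated data.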

Additional observations from a re-analysis of the deposited data

Results flagged for a closer look

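Within a group of 4 libraries, a library was singled out where its gap to the nearest other exceeded Dixon's critical share of the group's range, which chance meets in about 1 in 20 groups. It did in 8 of 147 groups, 6 of them among 105 groups of members. Nod1 stood at 11.7 CPM in UPSMALL4 against 18.2 to 19.4 CPM in the other UPSMALL libraries. Syk stood at 67.8 CPM in UPSMALL4 against 86.5 to 89.9 CPM. Card9 stood at 2.80 CPM in UPSMALL2 against 1.69 to 1.86 CPM.

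In UPBIG2, Naip2 stood at 78.8 CPM and Nlrp1b at 2.63 CPM, above the 59.9 to 62.9 CPM and 1.29 to 1.37 CPM of the other UPBIG libraries. In DOWN3, Nlrc4 stood at 5.48 CPM, above the 3.46 to 3.58 CPM of the other DOWN libraries. Of the companion genes, Clec1b stood at 16.3 CPM in UPSMALL2 against 19.2 to 19.6 CPM in the other UPSMALL libraries, and Sting1 at 15.1 CPM in UPBIG4 against 21.9 to 22.8 CPM in the other UPBIG libraries.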

How the results depend on the processing

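With library totals alone, 16 members were called between UPBIG and DOWN, 8 between UPBIG and UPSMALL and 12 in the joint test; companions gave 36, 20 and, between UPSMALL and DOWN, 0. Over all genes, totals gave 518 higher and 3237 lower (3755 in all, beside 1140 higher and 1070 lower on the TMM scale) between UPBIG and DOWN, and 189 higher and 1433 lower (1622, beside 406 and 314) between UPBIG and UPSMALL. Between UPSMALL and DOWN, all genes called were 393 under DESeq2, 226 under limma-voom, 460 without a filter and 275 with the block, beside 144, and companions called were 3 under DESeq2, beside 1. The joint test called 8 members under DESeq2, 9 without a filter and 9 with the block, beside 5. The causes of these shifts were not tested.

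Leaving out a library moved member calls between 6 and 10 (UPBIG and DOWN), 2 and 4 (UPBIG and UPSMALL) and 4 and 8 (joint test), companion calls between 3 and 10 (UPBIG and UPSMALL) and 0 and 2 (UPSMALL and DOWN), and calls over all genes between 60 and 180 (UPSMALL and DOWN). Among the values followed for 14 members (those given for every library), the uncalled ones that changed sign were Syk between UPBIG and UPSMALL with totals (-0.054), Tlr13 between UPBIG and DOWN with totals (-0.30), with limma-voom (-0.043) and without UPBIG1, UPBIG2, DOWN3 or DOWN4 (range over the 12 fits -0.068 to 0.14), and, between UPSMALL and DOWN, Aim2 without UPSMALL1 (range -0.021 to 0.51) and Clec4d without UPSMALL3 (range -0.16 to 0.030). With totals, uncalled values of other members changed sign too, such as Casp1 (-0.26), Ly96 (-0.22) and Irak1 (-0.24) between UPBIG and DOWN. Of the values followed for the 14 members, levels per kb included, 692 kept direction and side of the threshold, 25 newly passed, 34 no longer passed and 9 changed sign.

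Same-numbered libraries deviated from their group means with correlations of -0.0288 to 0.154, 5 of 12 over 0.1. Those of UPBIG and DOWN were 0.0381 to 0.134, all positive. These values do not settle whether the numbers pair libraries. The labels do not say so, and the main fit therefore has no block. With the replicate block 11, 5 and 0 members and 27, 12 and 1 companions were called, and 275 of all genes between UPSMALL and DOWN, beside 144 without it. With the longest transcript as length, Cd14 and Ly96, Tlr6 and Tlr8, Naip2 and Gsdmd, and Nlrp3 and Nlrp1b traded places in their classes, and Clec4n and Clec7a did in UPBIG. The sensors Nod2, Nlrp1b and Nlrp3 and the adaptor Card9 averaged under 5 CPM in every group.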

Other observations

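Some companion genes that the naming rule passed over were singled out after their values were seen. Naip1, a copy beside Naip2, Naip5 and Naip6, rose in UPBIG, where Naip6 fell and Naip2 and Naip5 were not called. It averaged 3.87 ± 1.51 CPM in UPBIG, 2.26 ± 0.863 CPM in UPSMALL and 0.842 ± 0.286 CPM in DOWN (SD, n = 4 each). Its log2 fold change between UPBIG and DOWN was 2.19 ± 0.45 (SE; edgeR adjusted p = 0.00189), called in all 12 fits that left out a library, and no UPSMALL library overlapped DOWN (1.41 ± 0.44, adjusted p = 0.138). Its counts were fractional in 12 of 12 libraries, so reads shared with its copies may enter it.

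The adaptor partners of CARD9 fell between UPBIG and DOWN: Bcl10 by 0.58 ± 0.16 on the log2 scale (edgeR adjusted p = 0.0171, lost without UPBIG2, UPBIG4, DOWN3 or DOWN4, up to 0.0672) and Malt1 by 0.73 ± 0.24 (0.0419, called only without UPBIG3, UPSMALL1, UPSMALL3, UPSMALL4 or DOWN4 among those fits, with 0.153 the highest in the others). Fcer1g, the signalling chain of Dectin-2 and Mincle, was at 0.28 ± 0.11 (0.0773). Il1b, the main cytokine product of caspase-1, was at -1.89 ± 0.66 (0.0828, passing without UPBIG3 or DOWN4), and Il18 at 0.54 ± 0.20 (0.0676, passing without UPBIG1, UPSMALL3 or DOWN4).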
